A study of Mus musculus with 14 samples.

Results

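A set of 1044 open-chromatin regions had lower accessibility in MPP3 cells carrying the Dnmt3a mutation than in wild-type MPP3 cells. The regions were selected on the measured signal itself. A region on chromosomes 1 to 19 was kept if its mean deposited value over the 14 libraries was at least 100, if both MPP3 Dnmt3a libraries lay below both MPP3 WT libraries, and if the difference of the mean log2 values was -1 or lower. Before that comparison each library was scaled so that its median over these regions was 200, and 4 was added before the log2 transform. The 1044 members were 4.24% of the 24627 regions on chromosomes 1 to 19 that passed the level filter, out of 705361 deposited regions in all. The same rule turned round, with both Dnmt3a libraries above both WT libraries by 1 or more, held 709 regions (2.88%). Because MPP3 Dnmt3a and MPP3 WT values chose the members, those values are described here without a test. Every test below uses only the other 10 libraries, apart from an alternative setting with all 14 libraries in the fit.

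The signal came from ATAC-seq, in which a transposase cuts and tags accessible DNA of sorted nuclei. The 14 libraries fall into 8 groups: MPP3 of genotype Dnmt3a-flR878H/+ (2 libraries), Dnmt3a-flR878H/+;Npm1-frt/+ (1), Npm1-frt/+ (2) and WT (Mx-Cre) (2), and LT-HSC of the same genotypes (1, 2, 2 and 2 libraries). All mice were of strain C57BL/6J, and the labels call the donors and recipients young without an age. Every recipient was lethally irradiated, carried the CD45.1 marker, and was given 1000000 whole marrow cells of 1 genotype. All of them, WT included, then received poly(I:C) after 4 weeks, tamoxifen 4 weeks later, and were killed for marrow after another 4 weeks. The labels write Mx-Cre for WT only and name no driver for the frt allele, whose libraries they title Npm1c. Mx-Cre is driven by an interferon-inducible promoter that is active in many cell types, so recombination is not limited to stem cells. The labels name neither the sort gates nor the animals behind each library, so p-values reflect variation from library to library that may be technical alone.

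Dnmt3a encodes an enzyme that places methyl groups on cytosines of DNA, and R878H changes an arginine in its catalytic domain. Mutations of this gene are frequent in clonal haematopoiesis and acute myeloid leukaemia, where a mutation of Npm1, the gene of a nucleolar chaperone, often joins them. LT-HSC (long-term haematopoietic stem cells) sustain blood formation, and MPP3 are multipotent progenitors that give mostly myeloid cells. Accessible regions are largely gene promoters and distal elements, where transcription factors hold nucleosomes away from DNA.

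The promoter windows below show what kinds of start site are among the members. Of the members, 345 overlapped the window of a protein-coding gene, taken as 250 bases before to 50 bases after its start in RefSeq on build GRCm38.p6. The 6 printed belong to the members of lowest difference with such a window (AW146154 and Kat14) and to members of the gene lists described further on (Zfp869, Ifih1, Traf2 and Rbl2). They run 5' to 3' along the gene, and capitals mark matches to 1 of 13 short transcription factor motifs. The windows lie at chr7:41499841-41500140 (minus strand), chr2:144368782-144369081 (plus), chr8:69716853-69717152 (minus), chr2:62646206-62646505 (minus), chr2:25546891-25547190 (minus) and chr8:91069807-91070106 (plus).
AW146154: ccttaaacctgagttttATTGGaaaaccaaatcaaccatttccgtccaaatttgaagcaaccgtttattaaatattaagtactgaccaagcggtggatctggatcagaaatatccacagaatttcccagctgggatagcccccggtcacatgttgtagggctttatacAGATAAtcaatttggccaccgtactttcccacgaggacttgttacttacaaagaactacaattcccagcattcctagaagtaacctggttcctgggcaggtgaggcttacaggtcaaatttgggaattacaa
Kat14: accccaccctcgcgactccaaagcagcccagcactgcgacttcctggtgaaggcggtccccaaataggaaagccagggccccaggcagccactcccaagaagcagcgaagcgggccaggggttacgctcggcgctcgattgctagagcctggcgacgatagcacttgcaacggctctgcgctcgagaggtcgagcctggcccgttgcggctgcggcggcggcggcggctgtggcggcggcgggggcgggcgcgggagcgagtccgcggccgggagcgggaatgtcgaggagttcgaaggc
Zfp869: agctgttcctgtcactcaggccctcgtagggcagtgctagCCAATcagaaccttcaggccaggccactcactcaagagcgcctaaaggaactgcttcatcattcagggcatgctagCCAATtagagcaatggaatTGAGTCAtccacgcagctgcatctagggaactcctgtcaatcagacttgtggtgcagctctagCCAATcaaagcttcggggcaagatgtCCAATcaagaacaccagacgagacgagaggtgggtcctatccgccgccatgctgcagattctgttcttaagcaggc
Ifih1: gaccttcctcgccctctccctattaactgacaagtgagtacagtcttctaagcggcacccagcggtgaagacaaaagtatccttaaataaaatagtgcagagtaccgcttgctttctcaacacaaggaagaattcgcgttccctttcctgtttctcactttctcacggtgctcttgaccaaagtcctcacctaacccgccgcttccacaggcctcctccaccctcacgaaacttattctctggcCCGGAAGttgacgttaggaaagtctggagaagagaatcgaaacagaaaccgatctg
Traf2: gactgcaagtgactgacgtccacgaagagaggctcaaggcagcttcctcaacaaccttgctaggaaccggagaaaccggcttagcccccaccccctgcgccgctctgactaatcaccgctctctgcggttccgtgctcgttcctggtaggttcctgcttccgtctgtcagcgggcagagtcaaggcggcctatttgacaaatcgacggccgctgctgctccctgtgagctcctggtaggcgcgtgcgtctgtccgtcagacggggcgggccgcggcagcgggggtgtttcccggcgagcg
Rbl2: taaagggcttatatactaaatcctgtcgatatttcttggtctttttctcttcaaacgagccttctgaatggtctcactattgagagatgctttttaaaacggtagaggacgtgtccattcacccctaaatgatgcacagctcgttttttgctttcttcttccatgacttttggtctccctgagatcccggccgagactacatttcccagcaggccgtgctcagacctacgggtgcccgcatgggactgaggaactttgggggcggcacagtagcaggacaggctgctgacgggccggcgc
The set spans CpG-poor and CpG-rich starts. The Zfp869 window held 8 CpG dinucleotides and 53.0% G or C, with 4 CCAAT boxes and 1 AP-1 match. The AW146154 window held 6 CpG and 42.0% G or C, with a GATA match and a CCAAT box. The Kat14 window held 36 CpG and 70.3% G or C and none of the motifs searched. Ifih1 encodes MDA5, a cytoplasmic sensor of double-stranded RNA, and its window carried an ETS match.

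The motifs were searched on both strands as the GATA motif AGATAA, the ETS motif CCGGAAG, the RUNX motif TGTGGTT, the AP-1 motif TGANTCA, the C/EBP motif TTGCNNAA, the PU.1 motif GAGGAAGT, the E-box CACGTG, the CRE string TGACGTCA, the SP/KLF motif GGGGCGGGG, the NFY box CCAAT, the YY1 motif AAGATGGCG, the CTCF core string AGGGGGC and the NRF1 motif. None of these strings contains another whole. Of 344 distinct member windows, 13.1% held the CTCF core string, against 18.5% of the 9111 windows at all tested regions on chromosomes 1 to 19. That was the widest gap among the motifs. The CCAAT box stood in 36.9% of member windows and 37.4% of all windows, the SP/KLF string in 24.4% and 25.3%, and the ETS string in 19.2% and 17.9%. RUNX matches were as frequent in member windows as in all of them (3.198% and 3.216%), and GATA matches stood in 5.81% and 4.95%. A match is a string of letters in a window, not evidence that a factor binds there.

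Member promoters were slightly poorer in G and C than promoters at tested regions in general. The median content was 60.5% in member windows and 62.7% in all windows, and the median CpG count was 20 and 22. The windows were divided by G and C content into 5 groups of similar size. In the group of lowest content (33.3% to 55.3%) 5.60% were members, against 2.93% in the group of highest content (70.7% to 88.7%). The median Dnmt3a minus WT difference was nearly the same in both, at -0.24 and -0.27 on the log2 scale. Of the 69 windows of the regions higher in MPP3 Dnmt3a, 49.3% had an observed over expected CpG ratio under 0.6, against 23.3% of member windows and 21.97% of all windows.

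Members lay somewhat less often near gene ends than tested regions as a whole, with 49.2% and 55.4% within 1 kb of one. Gene starts of protein-coding genes or, failing those, of other genes held 34.9% of them, against 38.7% of all tested regions and 11.1% of the regions higher in MPP3 Dnmt3a. Another 31.1% lay in a gene over 1 kb from either end (28.0% of all tested). A further 18.01% lay outside genes and over 1 kb from the gene assigned to them (13.3%), though a non-coding gene could lie nearer. They were narrower than tested regions as a whole, with a median width of 1087 bp against 1366 bp. Their mean deposited value over all libraries was also lower, with a median of 167 against 198. The share of regions that were members was 5.30% at mean values of 100 to 150 and 0.987% at 1000 or more. Regions higher in MPP3 Dnmt3a made up 6.42% of regions at 100 to 150, 0.221% at 300 to 500 and 1.97% at 1000 or more.

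The 1042 members with a gene fell on 996 genes, and 41 genes had 2 or more. Of the members, 11.1% had another member as the next tested region on the chromosome, against 8.21% of all tested regions. Grk2, a kinase that desensitizes G protein-coupled receptors, had the most, with 4 of its 6 tested regions. Gse1, Prkcd, which encodes protein kinase C delta, and Uggt1 had 3 each, of 44, 7 and 4 tested regions. These 4 genes were singled out after their values were seen.

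The median signal over the members was well below that of WT in each MPP3 Dnmt3a library. Both MPP3 Dnmt3a libraries lay more than 2-fold below the lower WT value at 214 of the 1044 members. The median over the 1044 members was 81.3 in MPP3 Dnmt3a replicate A and 92.7 in replicate B, against 199 and 197 in the MPP3 WT replicates. In the other MPP3 groups the median was 184 in the Dnmt3a;Npm1 library and 194 and 193 in the Npm1 libraries. In LT-HSC it was 169 in Dnmt3a, 164 and 168 in Dnmt3a;Npm1, 154 and 155 in Npm1, and 168 and 162 in WT. The MPP3 Dnmt3a libraries, whose low values chose the members, were the low ones, and the medians of the other 12 libraries ran from 154 to 199. The median difference between MPP3 Dnmt3a and MPP3 WT was -1.19 on the log2 scale, which is a 2.28-fold lower signal, and the interquartile range of members ran from -1.44 to -1.08. Over all tested regions on these chromosomes the same median was -0.15. Of the members, 53 had a difference of -2 or lower. A value under 100 was seen for 658 and 575 members in MPP3 Dnmt3a, 96 in MPP3 Dnmt3a;Npm1, 77 and 62 in MPP3 Npm1, and 52 and 48 in MPP3 WT.

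**Figure D1:**
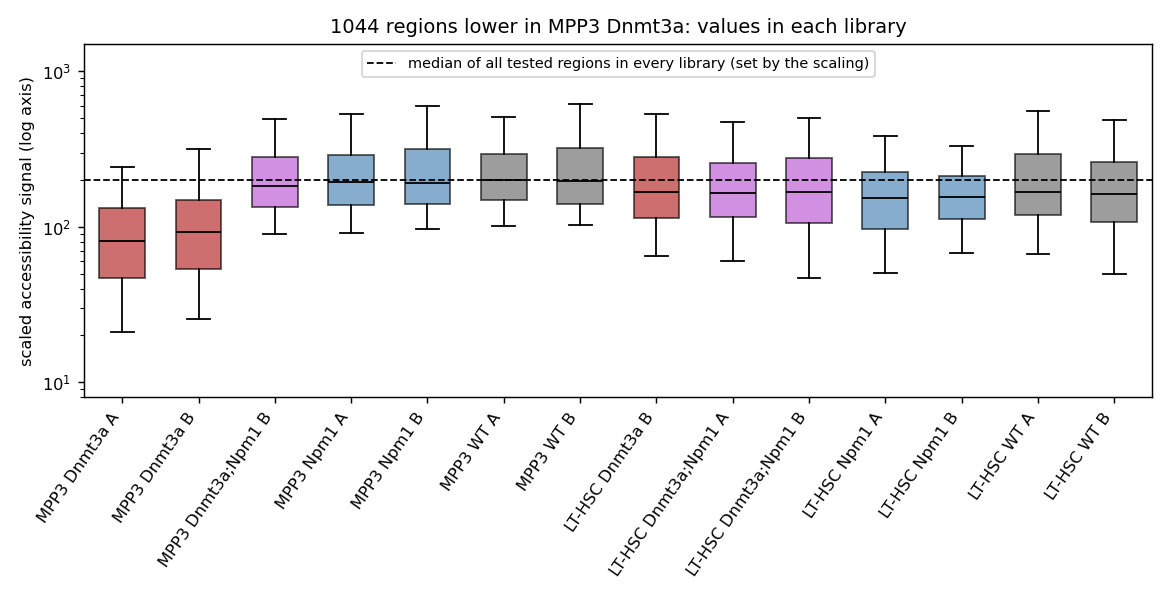
Scaled accessibility signal of the 1044 members (log axis) in each of the 14 libraries, coloured by genotype. Boxes span the interquartile range with the median as a line, whiskers reach the 5 and 95 percentiles, and the dashed line is the median of 200 to which all tested regions were scaled. The MPP3 Dnmt3a medians of 81.3 and 92.7 lie below those of the other 12 libraries, which run from 154 to 199.

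The values behind the low side rest on few reads. The deposited values of both MPP3 Dnmt3a libraries fall on multiples of 2.623 and 2.108 units, so that 1 read can be recognised, and these libraries held 7322969 and 9982950 reads in all regions. The median member then had 19.1 reads in replicate A and 36.1 in replicate B. At the smallest value of the library, which is that of 1 read, stood 10 and 6 members. Neither library had a lower value in any region, so whether it stands for 1 read or none is not known. No such step was found in either MPP3 WT library, so their depth is unknown. The share of signal in tested regions was 22.3% and 26.6% in MPP3 Dnmt3a, against 29.8% and 51.6% in MPP3 WT. Over the members, the log2 values of the MPP3 Dnmt3a replicates correlated with each other at r = 0.369 and those of the MPP3 WT replicates at r = 0.898, as a description across regions that share libraries. The SD of the difference between replicates over members was 1.19 in MPP3 Dnmt3a and 0.354 in MPP3 WT. The rule chose members on these same libraries, which shapes both figures. Over all tested regions the SD was 0.902 in MPP3 Dnmt3a and 0.513 in MPP3 WT. The correlation over tested regions on chromosomes 1 to 19 was 0.619 and 0.888. Replicate A was the lower of the MPP3 Dnmt3a libraries at 611 members and replicate B at 433. The part of depth in these differences was not tested.

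At the regions of lowest difference, 1 of the MPP3 Dnmt3a libraries was often close to empty. The lowest was at the start of AW146154, a protein-coding gene on chromosome 7 (region 41499190 to 41500199, mm10, as for all regions below). It had 8.13 and 111 in MPP3 Dnmt3a, 318 in Dnmt3a;Npm1, 222 and 297 in Npm1, and 373 and 323 in WT, a difference of -3.23. Both Dnmt3a values were the lowest of the 7 MPP3 libraries.
A region within Plekha2, a gene for an adaptor that binds membrane phosphoinositides (chromosome 8, 25090368 to 25091651), had 13.0 and 43.9 in MPP3 Dnmt3a, 131 in Dnmt3a;Npm1, 219 and 249 in Npm1, and 262 and 231 in WT. Its difference was -3.13, with both Dnmt3a libraries low. The start of Kat14, which encodes a histone acetyltransferase (chromosome 2, 144368477 to 144369759), had 4.88 and 234 in MPP3 Dnmt3a, 220 in Dnmt3a;Npm1, 319 and 399 in Npm1, and 314 and 392 in WT. Replicate A was at its smallest value there, while replicate B lay above the Dnmt3a;Npm1 library. Replicate A was also at its smallest value, 4.88, near Tmem170b, and replicate B at its own, 2.44, near Gm31569. Both libraries were low near Gfod1 (29.3 and 15.9, against 158 and 182 in WT). Across these 6 regions the difference ran from -3.23 to -2.69. Both libraries were also low within Rapgef2, which encodes an activator of Rap GTPases (13.0 and 51.2, against 194 and 176 in WT), with a difference of -2.62.

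**Figure D2:**
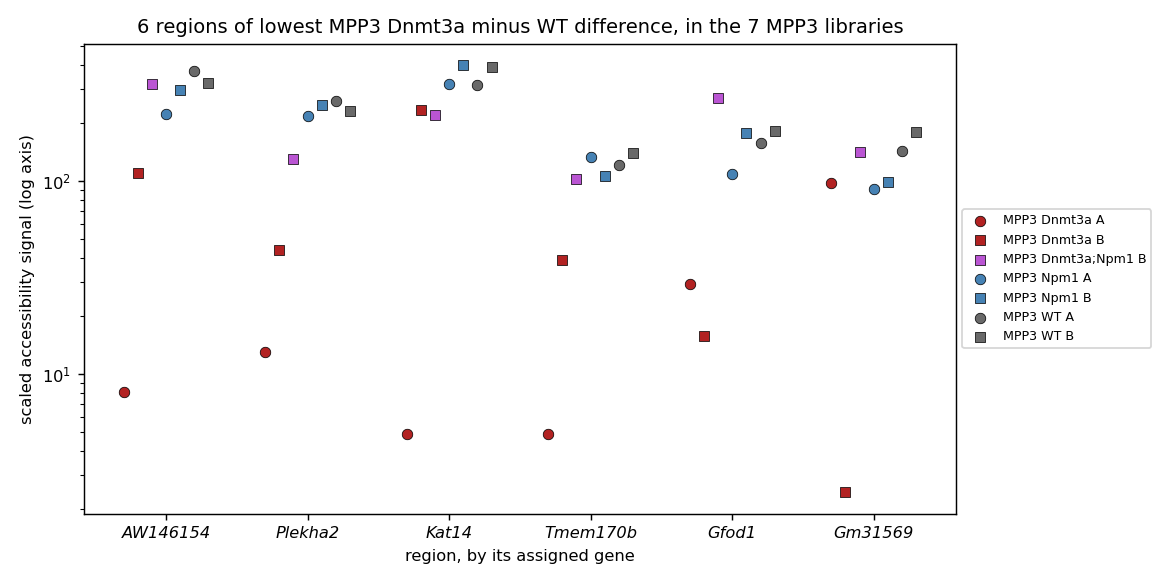
Scaled accessibility signal (log axis) of the 6 regions of lowest MPP3 Dnmt3a minus WT difference in the 7 MPP3 libraries, with circles for replicate A and squares for replicate B. The MPP3 Dnmt3a points differ widely between replicates, for example 8.13 and 111 at AW146154 and 4.88 and 234 at Kat14.

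The edge of the set divides a continuum. Just inside it were regions at the start of Fnbp1l (281 and 295 in MPP3 Dnmt3a, 637 and 529 in WT), within Ikzf1, the gene of the lymphoid factor Ikaros (115 and 241, against 334 and 343 in WT), and near Ccl2, a chemokine gene (97.6 and 90.2, against 262 and 140 in WT). Just outside it were regions at the starts of Zup1 (218 and 76.8, against 261 and 267 in WT) and Mettl9 (260 and 232, against 430 and 569 in WT) and within Mras (39.0 and 81.7, against 153 and 89.7 in WT). All 6 differences round to -1.0. Beyond the edge, 5324 regions had both MPP3 Dnmt3a libraries below both MPP3 WT libraries with a difference above -1, and 181 had a difference of -1 or lower with overlapping libraries. Without the size condition, 25.9% of tested regions had both MPP3 Dnmt3a libraries below both WT libraries and 14.3% had both above.

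The members with the highest signal were gene starts, and 5 of the 6 highest had differences close to the edge of -1. Nfe2l2, the gene of the oxidative stress factor NRF2 (chromosome 2, 75702833 to 75705531), had 636 and 889 in MPP3 Dnmt3a, 1311 in Dnmt3a;Npm1, 1176 and 1667 in Npm1, and 1381 and 1656 in WT. Hnrnpa0, an RNA-binding protein gene, had 363 and 807 in MPP3 Dnmt3a, against 985 and 1206 in WT. Ell, which encodes a transcription elongation factor, had 379 and 678 in MPP3 Dnmt3a, against 906 and 1236 in WT. Ripor1, Evi5l and Zfp319 complete the 6 highest. The difference was -1.40 at Ripor1 and ran from -1.06 to -1.004 at the other 5. In all 6 the replicate A value was the lower of the MPP3 Dnmt3a pair.

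The share of members ran from 0% to 8.33% over the gene lists, and many of these shares rest on few members. Over 24 lists of blood lineage, signalling and housekeeping genes, the list of translation factors and tRNA synthetases had the highest share, 10 of 120 tested regions (8.33%), against 4.24% of all regions on chromosomes 1 to 19. Its members lay at 10 genes. They included the starts of Eif3a, a subunit of the initiation factor that recruits ribosomes (200 and 429 in MPP3 Dnmt3a, 553 and 656 in WT), and Eif2ak4, the kinase GCN2 that senses amino acid shortage (255 and 260, against 484 and 570 in WT). Eef1akmt2 and Eef2kmt of this list encode methyltransferases of elongation factors, not factors themselves. Since 10 regions make the share and the list was 1 of 24, it is given as a count only.

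The blood lineage lists had few members each, with shares on both sides of the 4.24% of all tested regions. The myeloid list had 4 members of 67 tested regions (5.97%), at Cd33, Cebpb, Fes and Prtn3. The Prtn3 region, at the gene of neutrophil proteinase 3, had 81.3 and 90.2 in MPP3 Dnmt3a, 175 in Dnmt3a;Npm1, 162 and 171 in Npm1, and 197 and 172 in WT, so both Dnmt3a libraries lay apart from the other 5. The region near Fes, a tyrosine kinase gene, had 107 and 69.5 in MPP3 Dnmt3a, against 227 and 185 in WT. The stem cell list had 8 of 149 (5.37%), at Esam, Etv6, Fli1, Flt3, Lmo2, Mecom, Msi2 and Procr. A region within Flt3, the gene of a progenitor cytokine receptor, had 26.0 and 130 in MPP3 Dnmt3a, 254 in Dnmt3a;Npm1, 251 and 229 in Npm1, and 234 and 211 in WT. One at Esam, an adhesion molecule of stem cells, had 89.4 and 252 in MPP3 Dnmt3a and 194 and 228 in Npm1, so the Npm1 libraries did not lie above both Dnmt3a libraries. Lymphoid genes had 2 of 43 (4.65%), at Cd3d and Gata3, and erythroid and megakaryocyte genes 2 of 69 (2.90%), at Car2 and Fli1. The Hox and Meis list, of homeodomain genes active in stem cells, had 0 of 57, while 9 of its regions were among the 709 higher ones.

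In the signalling and cell cycle lists, the share of members ran from 3.13% to 5.48%, against 4.24% of all tested regions. The TNF and NF-kB list had 4 of 73 (5.48%), at Ikbkb, Il6, Traf1 and Traf2. The start of Traf2, an adaptor of TNF receptors, had 84.6 and 295 in MPP3 Dnmt3a, 423 in Dnmt3a;Npm1, 392 and 533 in Npm1, and 471 and 496 in WT. The interferon list had 2 of 64 (3.13%). Ifih1 had 29.3 and 188 in MPP3 Dnmt3a, against 213 and 367 in WT, and a region in Irf2 had 50.4 and 79.3, against 143 and 168 in WT. The early response list had 4 of 123 (3.25%), at Dusp1 (2 regions), Fosl2 and Klf10, and the region assigned to Klf10 lies 83403 bp away from it. Of 83 cell cycle regions 3 were members, at Cdk6, Cdkn1a and Rbl2. The Cdk6 region, within the gene of a G1 kinase, had 13.0 and 200 in MPP3 Dnmt3a, against 304 and 249 in WT. The start of Rbl2, which encodes the retinoblastoma relative p130, had 402 and 151 in MPP3 Dnmt3a, against 438 and 585 in WT. At Flt3, Traf2, Ifih1 and Cdk6 replicate A was the low library, and at Rbl2 it was replicate B.

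Of the chromatin and leukaemia genes, the list of DNA methylation and chromatin had 3 of 86 (3.49%), at Dnmt3l, Idh2 and Mbd4. The start of Mbd4, a glycosylase that repairs deaminated methylcytosine, had 141 and 393 in MPP3 Dnmt3a, 578 in Dnmt3a;Npm1, 488 and 653 in Npm1, and 601 and 638 in WT. Genes that cooperate in acute myeloid leukaemia had 4 of 91 (4.396%), at Etv6, Flt3, Idh2 and Trp53. The start of Trp53, the tumour suppressor p53, had 73.2 and 237 in MPP3 Dnmt3a, against 265 and 319 in WT. The Idh2 region lies 24596 bp away from the gene. Ribosomal protein genes had 5 of 100 (5.00%), at Rps10, Rps23, Rps25 and Rps6ka1, and the last of these encodes a kinase, not a ribosomal protein. Mitochondrial ribosome and respiratory chain genes had 8 of 168 (4.76%), solute carriers 23 of 424 (5.42%), ubiquitin and proteasome genes 18 of 418 (4.31%), histone genes 3 of 66 (4.55%), the Ets, Gata, Runx and C/EBP factors 5 of 133 (3.76%), splicing and RNA-binding genes 6 of 181 (3.31%), and nucleolus and ribosome biogenesis genes 2 of 64 (3.13%). Vesicle and small GTPase traffic had 14 of 507 (2.76%) and zinc finger genes 14 of 545 (2.57%). Pdgfra was the single member among 26 regions of niche and endothelial genes, and mast cell, basophil and eosinophil genes had 0 of 17.

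**Figure D3:**
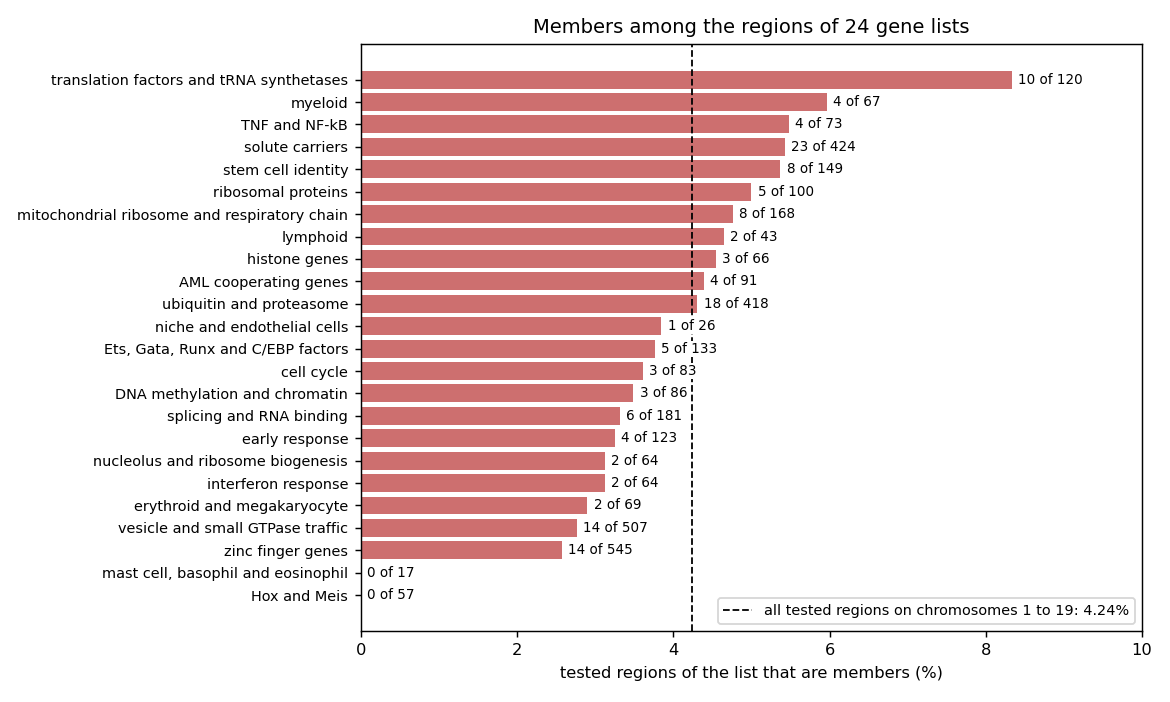
Percentage of the tested regions of each of 24 gene lists that are members, with counts beside the bars and the 4.24% of all tested regions on chromosomes 1 to 19 as a dashed line. Shares run from 0% (Hox and Meis, and mast cell genes) to 8.33% (translation factors and tRNA synthetases).

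The members were spread unevenly over chromosomes. They made up 6.13% of tested regions on chromosome 9, 5.91% on chromosome 1 and 5.83% on chromosome 5, against 2.65% on chromosome 11 and 0.286% (2 of 700) on chromosome 18. The regions higher in MPP3 Dnmt3a had the opposite layout, with 8.14% on chromosome 18 and 5.43% on chromosome 11. The same unevenness was present in MPP3 Dnmt3a replicate B outside the tested regions. Relative to the median of the 14 libraries, its signal in regions below the level filter was 0.78 higher on chromosome 18 and 0.39 higher on chromosome 11 on the log2 scale, and ran down to -0.35 on chromosome 5. In replicate A that signal stayed between -0.07 and 0.09 on every chromosome. Over the 19 chromosomes, the share of members and the signal of replicate B in low regions had r = -0.84 and Spearman rho = -0.69, given as a description because the chromosomes share the same libraries. In MPP3 WT replicate A, also used to choose the members, r was 0.54 and rho 0.50, and in the other 12 libraries r ran from -0.35 to 0.62. When each library's median was set equal on every chromosome, an alternative chosen after seeing the data, 1005 regions met the rule, 877 of them members. Chromosome 18 then held 21 and chromosome 11 held 117. In a window of 1 Mb on either side of a region, the low-level signal in MPP3 Dnmt3a over MPP3 WT had a median of -0.27 for members in replicate B, against -0.07 for all tested regions. For replicate A the medians were -0.08 and -0.07.

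**Figure D4:**
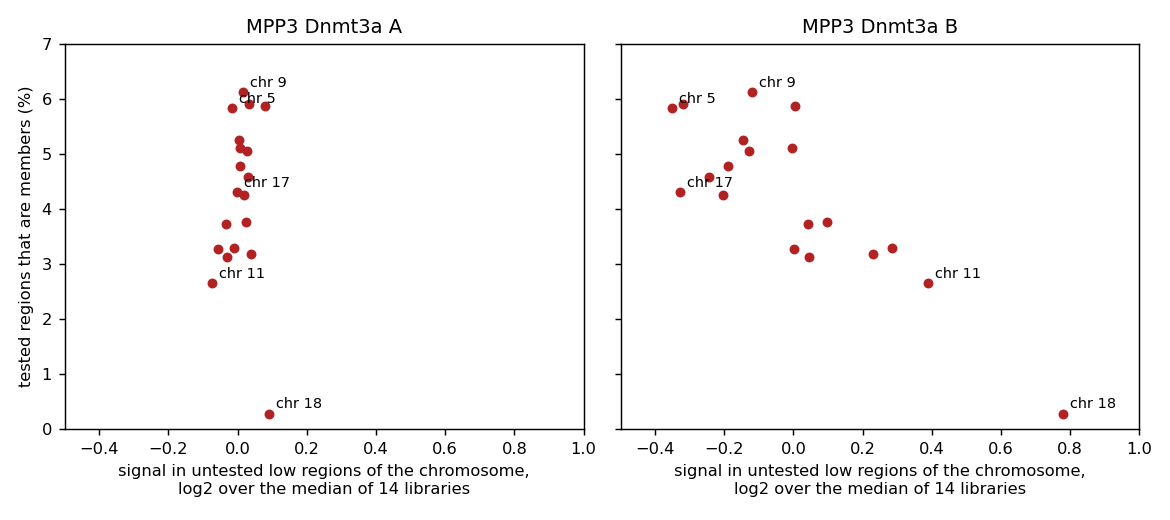
Percentage of tested regions that are members on each of the 19 chromosomes against the signal in untested low regions of that chromosome (log2 over the median of 14 libraries), for MPP3 Dnmt3a replicate A (left) and replicate B (right). Replicate A varies little along the x axis, while in replicate B chromosome 18 (0.78, 0.286% members) and chromosome 11 (0.39, 2.65%) lie lowest and farthest right.

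The remaining 10 libraries were then used to ask how the members behaved where the rule had not looked. The sorted populations were first compared on a few marker genes. Medians over their stem cell regions separated MPP3 from LT-HSC, and those over their myeloid regions overlapped. The 8 tested regions of the myeloid genes Mpo, Elane, Prtn3 and Ctsg had medians of 141 to 302 in MPP3 and 78.4 to 177 in LT-HSC, with each MPP3 library above the LT-HSC libraries of its own genotype, and 20 regions of the stem cell genes Mecom, Hlf, Procr, Tcf15 and Nkx2-3 had 115 to 155 in MPP3 and 181 to 228 in LT-HSC. The MPP3 Dnmt3a libraries had 177 and 170 for the myeloid and 155 and 143 for the stem cell genes. The wider lists described above did not separate the cell types. Over the 149 regions of the stem cell list, medians were 154 to 184 in MPP3 and 158 to 183 in LT-HSC. Over the 67 regions of the myeloid list they were 161 to 209 in MPP3 and 133 to 226 in LT-HSC. Tests used limma across all 25129 regions, with p-values adjusted over all of them by the Benjamini-Hochberg method, two-sided.

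In MPP3, the median member was slightly lower in the Dnmt3a;Npm1 library than in the Npm1 libraries, somewhat more so than the median of all tested regions. The Dnmt3a;Npm1 library was set against both MPP3 Npm1 libraries, a comparison of 1 library with 2 in which the lone library is assumed to vary like the other groups. The median member difference was -0.10, with an interquartile range from -0.34 to 0.14, and the median over all tested regions was -0.03. No region was called (0% of all), and at an unadjusted p under 0.05 there were 1 member higher (0.557% of all regions were) and 6 lower (0.414% of all regions were). The smallest adjusted p among members was 1.00. The smallest unadjusted p-values belonged to the start of Dop1a, a gene of endosome to Golgi traffic, and to a region in Clmp, an adhesion molecule gene. Dop1a had 182 in Dnmt3a;Npm1, against 338 and 372 in Npm1 (log2 difference -0.94, SE 0.39, limma adjusted p = 1.00). Clmp had 44.9 in Dnmt3a;Npm1, against 266 and 178 in Npm1 (-2.18, SE 0.92, limma adjusted p = 1.00). Counted without a test, the Dnmt3a;Npm1 library lay below both Npm1 libraries at 495 members (47.4%), against 38.1% of tested regions on chromosomes 1 to 19. It lay above both MPP3 Dnmt3a libraries at 960 members, and both Npm1 libraries did so at 967, but members were chosen for low MPP3 Dnmt3a values, which favours this direction.

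In LT-HSC, the members showed no call for the Dnmt3a mutation alone. The LT-HSC Dnmt3a library had a median member value of 169, against 168 and 162 in the WT libraries, and the median member difference was 0.04, against 0.06 over all tested regions. No region was called (0%), with 12 members higher and 11 lower at an unadjusted p under 0.05, where 0.808% and 0.915% of all regions were. The library lay below both WT libraries at 273 members (26.1%), against 26.6% of tested regions. The smallest p-values were at Cers6, a ceramide synthase gene, with 91.8 in Dnmt3a and 18.6 and 7.22 in WT (2.59, SE 0.81, limma adjusted p = 1.00), and near Usp46, a deubiquitinase gene, with 29.2 in Dnmt3a and 205 and 122 in WT (-2.29, SE 0.77, limma adjusted p = 1.00).

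On the Npm1 background in LT-HSC, calls with the median scaling lay mostly higher with the Dnmt3a mutation, both among members and over all regions. Between Dnmt3a;Npm1 and Npm1 (2 libraries each) the median member difference was 0.19, against 0.11 over all regions. By limma, 41 members rose (3.93%, where 4.57% of all regions rose) and 3 fell (0.287%, where 1.66% of all regions fell). With TMM scaling 20 members rose and 3 fell, while over all regions 583 rose and 400 fell, against 1149 and 416 with the median scaling. With cyclic loess scaling 4 members rose and 0 fell, while over all regions 61 rose and 133 fell. The start of Lyrm7, an assembly factor of respiratory complex III, had 384 and 411 in Dnmt3a;Npm1, against 111 and 124 in Npm1, and rose by 1.73 (SE 0.30, limma adjusted p = 0.0076). The start of Zfp869, whose window above holds the 4 CCAAT boxes, had 654 and 1128 in Dnmt3a;Npm1, against 297 and 265 in Npm1, and rose by 1.60 (SE 0.28, limma adjusted p = 0.00794). A region 65724 bp from B230307C23Rik rose by 2.41 (SE 0.43, limma adjusted p = 0.00794). The 3 members that fell lay near Septin5, a septin gene (74.6 and 24.7, against 240 and 217 in Npm1), at the lncRNA gene Gm33564 (42.2 and 41.4, against 194 and 203 in Npm1) and in Ankrd27, a regulator of Rab GTPases (45.4 and 55.5, against 194 and 132 in Npm1), with log2 differences of -2.29, -2.14 and -1.60. At all 6 regions the groups did not overlap.

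The LT-HSC Npm1 libraries stand apart from the others, and this touches each comparison that holds them. Only 19.5% and 15.7% of their signal lay in tested regions, against 30.05% to 44.8% in the other LT-HSC libraries. With that share as a covariate, 0 members were called between Dnmt3a;Npm1 and Npm1 LT-HSC, between Npm1 and WT LT-HSC, and between MPP3 Npm1 and LT-HSC Npm1. Without LT-HSC Dnmt3a;Npm1 replicate B, 0 members were called between Dnmt3a;Npm1 and Npm1, and without its replicate A 53 rose and 34 fell. Like MPP3 Dnmt3a replicate B, LT-HSC Dnmt3a;Npm1 replicate B had uneven low-level signal over chromosomes, from -0.55 to 0.52. Averaged over both Npm1 backgrounds, LT-HSC with the Dnmt3a mutation (3 libraries) against those without it (4 libraries) gave a median member difference of 0.13, against 0.09 over all regions. No member was called there, and 1 region in all was (0.00398%). At an unadjusted p under 0.05, 91 members were higher (9.36% of all regions were) and 19 lower (4.38% of all regions were). The smallest p-values were near B230307C23Rik (1.51, SE 0.34) and in Synpo2l, an actin-binding protein gene (1.24, SE 0.30), each at a limma adjusted p of 0.201.

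Some members were called between Npm1 and WT in LT-HSC. With the median scaling more were called lower than higher, as over all regions. Genotype and the low share of signal in tested regions of the LT-HSC Npm1 libraries cannot be told apart here. Between Npm1 and WT (2 libraries each) 20 members rose (1.92%, where 3.29% of all regions rose) and 72 fell (6.90%, where 7.14% of all regions fell). With TMM scaling the split was 21 and 45, and the median member difference was -0.13 in place of -0.26 while that over all regions moved to -0.02, against -0.15. Over all regions 952 rose and 962 fell with TMM scaling, against 827 and 1793 with the median scaling. With cyclic loess scaling 4 members rose and 14 fell, while over all regions 400 rose and 148 fell. Efcab2 had 366 and 194 in Npm1, against 900 and 810 in WT, and fell by 1.66 (SE 0.31, limma adjusted p = 0.00353). The start of the lncRNA gene 1300002E11Rik had 88.9 and 172 in Npm1, against 415 and 494 in WT, and fell by 1.84 (SE 0.35, limma adjusted p = 0.00414). Lyrm7 had 111 and 124 in Npm1, against 392 and 325 in WT, and fell by 1.57 (SE 0.30, limma adjusted p = 0.0045). Among members that rose, Gm33564 had 194 and 203 in Npm1, against 34.4 and 13.4 in WT (2.97, SE 0.63, limma adjusted p = 0.00749). A region in Rbm38, an RNA-binding protein gene induced by p53, had 337 and 262 in Npm1, against 96.3 and 42.3 in WT (2.15, SE 0.46, limma adjusted p = 0.00826). One in Ikbke, a kinase gene of interferon and NF-kB signalling, had 236 and 262 in Npm1, against 25.9 and 72.2 in WT (2.41, SE 0.52, limma adjusted p = 0.00838).

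Members lay higher in MPP3 than in LT-HSC among Npm1 mutants. The median member difference was 0.49, with an interquartile range from 0.06 to 0.90, against a median of 0.25 over all regions, and 814 members (78.0%) had a positive difference, against 61.4% of all regions. By limma 170 members rose (16.3%, where 14.4% of all regions rose) and 5 fell (0.479%, where 5.37% of all regions fell). Since the rule asks for high values in MPP3 WT relative to MPP3 Dnmt3a, it favours regions open in MPP3, and the counts are given beside that choice. With TMM scaling 69 members rose and 9 fell, while over all regions 1689 rose and 1812 fell, against 3617 and 1350 with the median scaling. With cyclic loess scaling 37 members rose and 2 fell, while over all regions 308 rose and 839 fell. Without MPP3 Npm1 replicate B, 1 member was called. The start of Dtl, an adaptor of a ubiquitin ligase that degrades replication licensing factors, had 921 and 1058 in MPP3, against 311 and 324 in LT-HSC (1.62, SE 0.27, limma adjusted p = 0.00137). Lyrm7 had 418 and 415 in MPP3, against 111 and 124 in LT-HSC (1.79, SE 0.30, limma adjusted p = 0.00154). Zfp869 had 801 and 993 in MPP3, against 297 and 265 in LT-HSC (1.66, SE 0.28, limma adjusted p = 0.00164). Of the 5 that fell, Agpat3, an acyltransferase gene, had 70.6 and 90.1 in MPP3, against 158 and 349 in LT-HSC (-1.51, SE 0.46, limma adjusted p = 0.028). B3gnt3, a glycosyltransferase gene, differed by -0.997 and Tnk1, a kinase gene, by -1.12. Lyrm7 and Zfp869 were called in each of the 3 pairwise comparisons that share the LT-HSC Npm1 libraries, and in all 3 the LT-HSC Npm1 libraries are the low ones.

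The Dnmt3a difference on the Npm1 background was finally compared between the cell types. The difference in MPP3 minus that in LT-HSC had a median of -0.27 over members and -0.15 over all regions. No region was called (0%). At an unadjusted p under 0.05, 8 members were higher (3.78% of all regions were) and 89 lower (8.30% of all regions were). The smallest p-values were at Zfp869 (-1.91, SE 0.45, limma adjusted p = 0.241) and Lyrm7 (-1.95, SE 0.47, limma adjusted p = 0.256), where the LT-HSC difference was the larger. This comparison again holds the LT-HSC Npm1 libraries and the lone MPP3 Dnmt3a;Npm1 library.

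**Figure D5:**
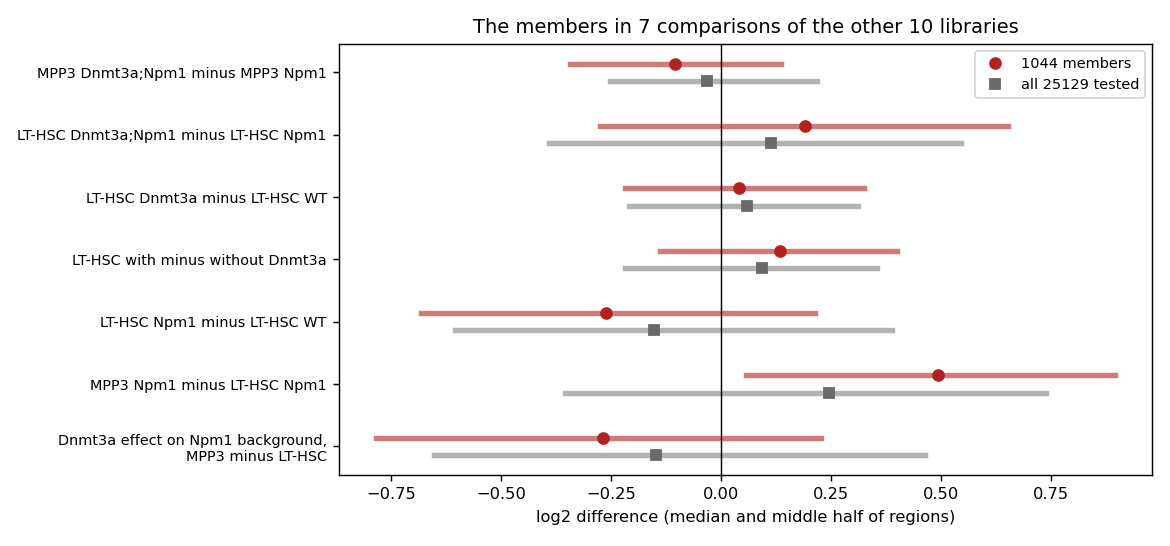
Median (point) and interquartile range (bar) of the log2 difference over the 1044 members (red circles) and over all 25129 tested regions (grey squares) in 7 comparisons of the 10 libraries that the rule did not use. The member median lies beyond that of all regions on the same side of 0 in 6 comparisons, most in MPP3 Npm1 minus LT-HSC Npm1 (0.49 and 0.25), and is nearer 0 in LT-HSC Dnmt3a minus WT (0.04 and 0.06).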

How the data were processed

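ATAC-seq signal was measured in 14 libraries of 8 groups, taken from the labels. The authors deposited 1 table of signal values per region and library on build mm10. R 3.6.0, HOMER 4.10, edgeR 3.26.4 and DiffBind 2.12.0 are named without a role, per the submitters' processing notes. The sources used here name no aligner, peak caller, filter or shift of read ends to the cut site. The values are whole numbers but had been scaled per library, so the planned count test was replaced by limma 3.58.1 in R 4.3.3, with a trended, robust prior on log2(scaled value + 4), which understates differences of low regions.

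The fit held the 10 libraries of 6 groups that the rule did not use, and p-values were adjusted over all 25129 regions with a mean of at least 100. Errors are limma's standard errors. The members, gene lists and comparisons were chosen with earlier results of these data known. A region was assigned to the protein-coding gene whose promoter window or body it overlapped, then to another gene it overlapped. Failing those, it went to the nearest protein-coding gene within 100 kb, and to a gene of another kind only where there was none. A gene of another kind can therefore lie nearer than the gene named. Such a gene is a label of position. Named regions were the 8 of lowest difference (1 is not reported here), 3 on either side of the edge, up to 3 called members per direction and comparison by smallest p (or the 2 of smallest p), up to 2 per list and the 6 of highest mean, and the text prints values for part of those taken from lists. The limma step was first tested on simulated data. Alternatives were scaling, filter, pseudocount, covariate, block, prior and leaving out each library. Depth is unknown for 7 libraries without a recognisable value of 1 read.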

Additional observations from a re-analysis of the deposited data

How the results depend on the processing

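The number of members depends strongly on the settings. It was 634 with TMM scaling, 6608 with library totals, 3128 with background subtracted, 6666 at a mean of at least 50, 148 at a mean of at least 200, 4191 at a difference of at most -0.5 and 226 at most -1.5. Leaving out 1 of the 4 libraries that chose them gave 1200 to 2583, and 599 of the 1044 members met the rule without MPP3 Dnmt3a replicate A and 755 without replicate B. Library totals moved the median of all regions to 0.87 between Dnmt3a;Npm1 and Npm1 LT-HSC, -1.14 between Npm1 and WT LT-HSC and 1.19 between MPP3 Npm1 and LT-HSC Npm1.

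Members called in those same 3 comparisons (44, 92 and 175 in all) came to 379, 587 and 701 with library totals, 4, 18 and 39 with cyclic loess, 82, 249 and 371 at a mean of at least 50, 6, 15 and 29 at a mean of at least 200, 0, 11 and 49 without trend and robust prior, and 0 in each with library enrichment as a covariate. TMM gave 23 between Dnmt3a;Npm1 and Npm1 LT-HSC and 78 between MPP3 Npm1 and LT-HSC Npm1. All 14 libraries in the fit gave 14 between Dnmt3a;Npm1 and Npm1 LT-HSC and 50 between Npm1 and WT LT-HSC. Background subtraction gave 48 between Npm1 and WT LT-HSC and 64 between MPP3 Npm1 and LT-HSC Npm1, and no filter gave 61 in the last. Leaving out each library gave 0 to 87, 17 to 126 and 1 to 216. LT-HSC with against without Dnmt3a gave 3 with library totals, 1 with no filter and 0 to 2 with a library left out, and the interaction 0 to 1. The causes were not tested. No named member changed direction in its comparison under any setting run.

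The replicate letters were not taken as pairs. Of 15 group pairs, 1 had deviations correlated above 0.1 (range -0.25 to 0.42). The labels do not name the animals, so whether the letters pair samples is unknown. With a replicate block the 3 comparisons called 42, 85 and 172 members, and no member in the other 4. DESeq2 was not run because the values are not counts. Depth limits the MPP3 Dnmt3a libraries, at a median of 19.1 and 36.1 reads per member, and LT-HSC Npm1 replicate A, at 33.1. With 1 or 2 libraries per group, 0 calls do not show that accessibility was equal.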
